A study of Homo sapiens with 6 samples.

Results

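The 8 genes described here encode LSD1 (KDM1A), its paralog LSD2 (KDM1B), the CoREST scaffolds RCOR1, RCOR2 and RCOR3, the MYM-type zinc finger protein ZMYM2, and the repressors GFI1 and GFI1B. They were taken by gene symbol as parts of a known repressor machinery, with earlier results of these data known, and they are 8 of the 60640 genes in the tables. PolyA RNA of MOLT-4 cells, a long-established line from a human T-lineage acute leukemia (T-ALL), was sequenced in 3 wild type libraries and 3 libraries labelled IK-KO. Wild type cells served as the CRISPR control, whereas IK-KO cells were targeted in IKZF1, the gene of IKAROS, a zinc finger regulator of lymphoid genes. Both were grown in the same serum-containing medium, and the labels name no drug for either group. The labels name neither clones nor separate cultures, and the study blotted more than a single knockout clone without saying which was sequenced. Differences between the lines other than the loss of IKAROS cannot be told apart from it, and the p-values reflect no more than how these libraries vary, which may be technical. In such bulk RNA, fewer cells that express a gene and less RNA per cell cannot be told apart.

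LSD1 removes mono- and dimethyl marks from lysine 4 of histone H3, a mark of enhancers and promoters. On nucleosomes it works with a CoREST scaffold, which joins it to the histone deacetylases HDAC1 and HDAC2. DNA-binding proteins bring this complex to genes. GFI1 and GFI1B do so through a short N-terminal SNAG domain that docks in the active site of LSD1, and ZMYM2 binds the complex as well. In blood formation GFI1 is known for its roles in lymphoid precursors and neutrophils, and GFI1B for erythroid cells and megakaryocytes.

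Each library gave values above 0 for 21254 to 21887 table rows, and relative depth, judged from the confidence bounds in the files, ran from 0.905 to 1.09 of the mean with overlapping groups. Levels are FPKM, fragments scaled to transcript length and to sequencing depth, so genes can be compared per length. The T-cell marker genes summed to between 1438 and 1513 FPKM in wild type and between 1692 and 1894 FPKM in IK-KO, and 8 of these 10 genes were called (limma adjusted p under 0.05, as were 19.9% of all tested genes), 5 higher and 3 lower. Within that sum CD247 rose from 66.0 to 246 FPKM, CD3D from 490 to 667 FPKM and CD3G from 66.5 to 105 FPKM (group means). ZAP70 rose from 131 to 162 FPKM and PTCRA from 1.44 to 2.90 FPKM. CD2 fell from 61.5 to 5.14 FPKM, CD7 from 15.8 to 4.17 FPKM and CD5 from 25.3 to 11.7 FPKM. These 8 markers were named after their values were seen. Their part in the results below was not tested. B-cell markers summed to at most 3.62 FPKM in any library, myeloid markers to at most 0.891 FPKM, and erythroid and megakaryocyte markers to between 2.77 and 3.43 FPKM in wild type and 3.93 and 4.46 FPKM in IK-KO, with HBB, PF4 and GP9 at 0 in all 6. EPOR made up most of that last sum, at 2.84 FPKM in wild type and 3.53 FPKM in IK-KO, and was not called (limma adjusted p 0.277). The RNA of the targeted gene did not fall: IKZF1 was at 134, 124 and 105 FPKM in wild type against 207, 260 and 207 FPKM in IK-KO, a rise of 0.89 on the log2 scale (SE 0.12, limma adjusted p 0.00295). These tables thus give no check of the loss of IKAROS protein, and the edited libraries are named here by their label. The study states that the knockout was checked by PCR and western blot.

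RefSeq gave promoter sequence for 7 of the 8 genes, all but RCOR2, in 13 windows that each end at the base before an annotated start. Those of KDM1A, GFI1 and GFI1B are shown because GFI1 family proteins read DNA through an AATC core and are known to bind their own genes, and because KDM1A was among the genes that rose. All are on GRCh38.p14, 5′ to 3′ on the strand of the gene, with each AATC, or GATT where the core lies on the other strand, in capitals. The KDM1A window is chr1:23019218-23019467 (plus strand), the GFI1 window before its most upstream start is chr1:92486926-92487175 (minus strand), and those of GFI1B are chr9:132945281-132945530 and chr9:132978444-132978693 (plus strand).
KDM1A: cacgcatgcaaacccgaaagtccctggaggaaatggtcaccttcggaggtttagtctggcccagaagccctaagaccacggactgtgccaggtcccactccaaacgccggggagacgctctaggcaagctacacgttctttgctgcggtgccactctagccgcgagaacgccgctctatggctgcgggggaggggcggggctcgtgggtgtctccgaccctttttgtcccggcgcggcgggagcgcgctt
GFI1: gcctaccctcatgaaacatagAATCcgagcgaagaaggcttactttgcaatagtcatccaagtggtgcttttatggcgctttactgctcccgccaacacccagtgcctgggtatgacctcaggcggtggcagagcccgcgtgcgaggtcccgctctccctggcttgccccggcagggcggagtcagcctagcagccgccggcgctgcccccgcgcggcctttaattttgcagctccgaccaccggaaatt
GFI1B first window: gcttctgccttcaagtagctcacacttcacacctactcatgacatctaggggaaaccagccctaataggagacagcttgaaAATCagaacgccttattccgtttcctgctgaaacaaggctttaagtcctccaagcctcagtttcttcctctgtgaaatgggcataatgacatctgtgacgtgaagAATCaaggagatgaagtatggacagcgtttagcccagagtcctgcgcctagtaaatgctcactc
GFI1B second window: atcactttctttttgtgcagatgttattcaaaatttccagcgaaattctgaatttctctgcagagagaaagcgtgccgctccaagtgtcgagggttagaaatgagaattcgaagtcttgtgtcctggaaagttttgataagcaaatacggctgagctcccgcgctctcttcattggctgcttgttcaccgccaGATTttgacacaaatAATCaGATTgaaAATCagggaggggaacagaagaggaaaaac

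The KDM1A window held no AATC core, the GFI1 window held 1, and the GFI1B windows held 2 and 4. The core is short, and 64.8% of all 35116 promoter windows held it on either strand, as did 9 of the 13 windows here. The longer form AAATCA, which contains the core, was in both GFI1B windows and in 11.6% of all windows. The IKAROS family core GGGAA was in 9 of the 13 windows and in 59.0% of all windows. It was absent from the KDM1A and RCOR1 windows, from the GFI1 window printed above and from 1 of the 3 ZMYM2 windows. It was found 4 times in that of KDM1B. Its longer form TGGGAA was in 20.8% of all windows. TGGGAA was in 1 of the 3 GFI1 windows and in 1 of the 3 ZMYM2 windows. Matches were counted on both strands, and they describe letters, not sites of binding. Base composition set the GFI1B windows apart from that of KDM1A, with 5 and 9 CpG dinucleotides against 23, where the median window had 11. The GFI1B windows had 46.8 and 42.8% GC, where the median window had 58%. The shares over all windows are thus not matched to them in composition.

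In wild type cells the genes spanned from near 0 to almost 100 FPKM. KDM1A was the highest at 94.4 ± 4.23 FPKM (SD, n = 3), above 93.6% of the tested genes when averaged over the 6 libraries. ZMYM2 followed at 26.1 ± 4.55 FPKM. RCOR1 (12.9 ± 1.72), RCOR3 (12.6 ± 1.05) and GFI1 (12.1 ± 0.887 FPKM) came next, and their ranges overlapped, so that their order was within the spread of the libraries. KDM1B stood below them at 7.45 ± 0.738 FPKM, then RCOR2 at 1.503 ± 0.316 FPKM, and GFI1B was at or near 0. In IK-KO the order of the means was the same, and there GFI1, at 9.56 to 11.6 FPKM, lay below RCOR3, at 11.9 to 14.5 FPKM, without overlap.

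**Figure D1:**
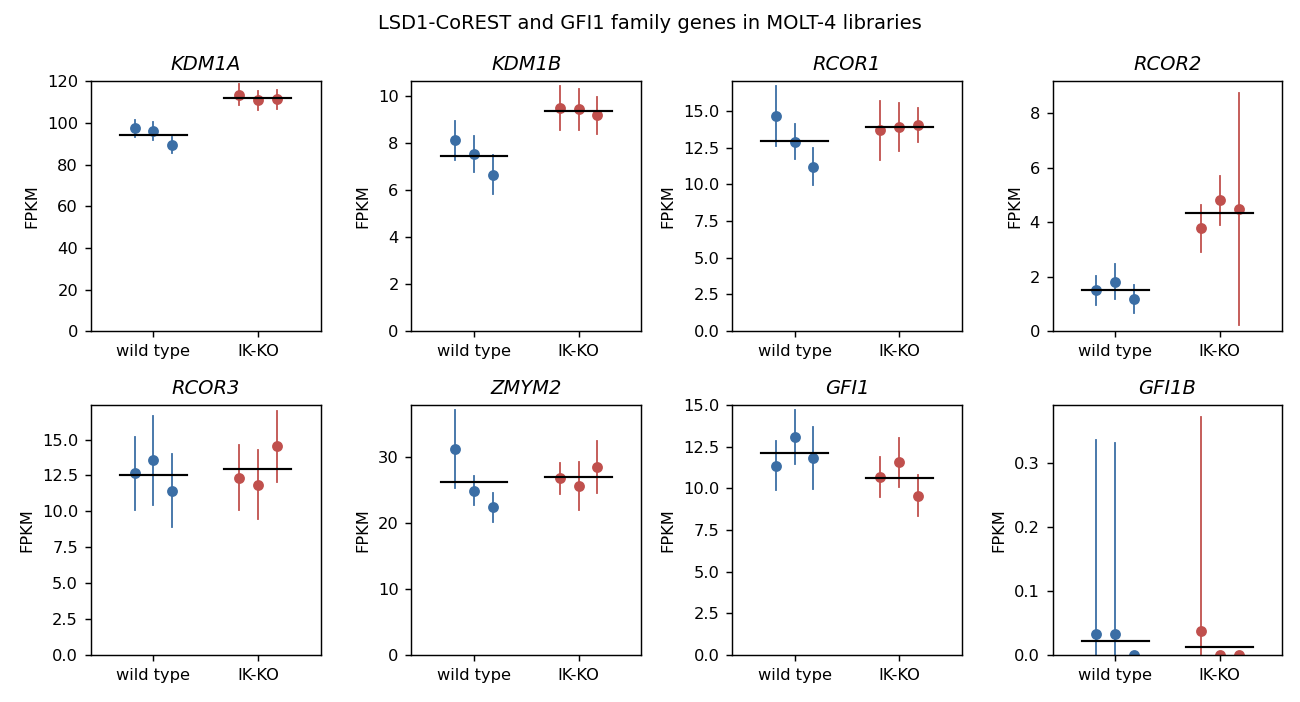
FPKM of each gene in the 3 wild type (blue) and 3 IK-KO (red) libraries; points are libraries in order of replicate number, vertical lines the confidence bounds in the files and black bars group means, and each panel has its own linear axis from 0. KDM1A, KDM1B and RCOR2 have no overlap of points between groups, and the bound of RCOR2 in IK-KO replicate 3 runs from 0.223 to 8.75 FPKM.

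Genes with a mean of at least 1 FPKM were tested on log2(FPKM + 1) with limma, fitted on all 12652 such genes, and a gene is called at an adjusted p under 0.05. Of the 8 genes, 7 were tested and 2 were called, KDM1A and RCOR2, both higher in IK-KO. Over all tested genes 19.9% were called, 10.1% higher and 9.75% lower, so 2 of 7 is near the background. KDM1A, KDM1B and RCOR2 had ranges that did not overlap between groups, all with IK-KO above, where 39.0% of all tested genes did not overlap and 20.9% did so with IK-KO above. The median change of the 7 was 0.10 on the log2 scale, beside 0.02 over all tested genes. Wild type replicate 3, the library with the lowest relative depth, held the lowest wild type value of 6 of the 7 tested genes, all but GFI1.

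**Figure D2:**
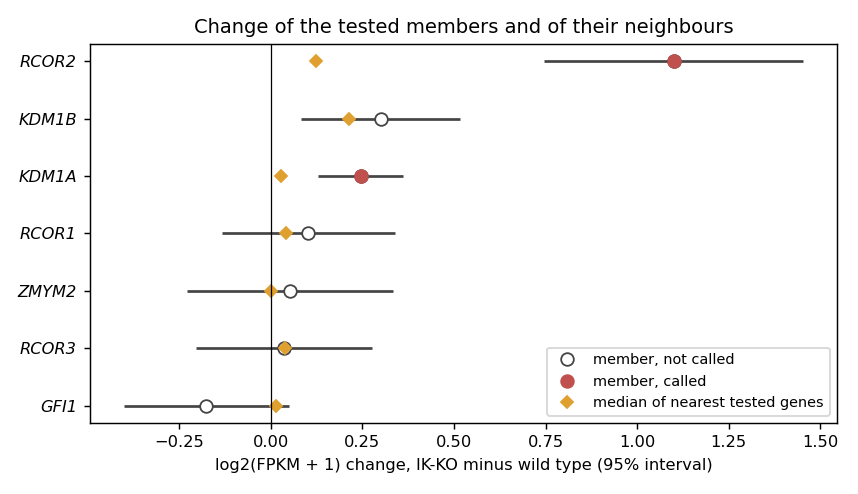
Change from wild type to IK-KO of the 7 tested genes on the log2(FPKM + 1) scale, with 95% intervals from limma. Filled circles are called genes. Diamonds are the group difference in the median deviation, taken in each library, of up to 50 tested genes nearest on the chromosome. RCOR2 lies at 1.10, far from its neighbours' median of 0.12, while KDM1B at 0.30 lies close to its neighbours' 0.21.

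KDM1A (ENSG00000004487.16, chromosome 1, 23019443 to 23083689, plus strand), the demethylase at the centre of the complex, stood at 97.5, 96.2 and 89.6 FPKM in wild type against 114, 111 and 111 FPKM in IK-KO. Every IK-KO library was above every wild type library, and so were the confidence bounds, with an upper bound of at most 102 FPKM in wild type and a lower bound of at least 106 FPKM in IK-KO. The mean rose from 94.4 ± 4.23 to 112 ± 1.44 FPKM (SD, n = 3), 1.19 times. The log2 change was 0.24 (SE 0.05, 95% interval 0.13 to 0.36, limma adjusted p 0.0143). Without IK-KO replicate 1 it was 0.23 and missed the threshold (adjusted p 0.0545), and over the 14 alternatives it ran from 0.21 to 0.27 (adjusted p 0.00539 to 0.0545). The median deviation of the 50 nearest tested genes from their wild type means, taken in each library, was 0.03 higher in IK-KO. Of these neighbours 6 were called. LUZP1, which lies 0.334 kb past the end of KDM1A, changed by 0.14 (adjusted p 0.396), and ZBTB40, the nearest tested gene before it, by 0.07 (adjusted p 0.695).

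KDM1B (ENSG00000165097.16, chromosome 6, 18155329 to 18223854, plus strand) encodes the second demethylase of this type, which acts on the same histone residue but does not use a CoREST scaffold. It was at 8.13, 7.55 and 6.66 FPKM in wild type against 9.49, 9.44 and 9.19 FPKM in IK-KO. The groups did not overlap, yet the log2 change of 0.30 (SE 0.09, 95% interval 0.08 to 0.52) was not called (limma adjusted p 0.0621). Scaling by median of ratios called it, at 0.29 (adjusted p 0.0384). Its surroundings moved as well: of the 50 nearest tested genes 33 were higher and 22 were called. Their median, taken in each library as for KDM1A, was 0.21 higher in IK-KO. With that median removed, KDM1B changed by 0.09 (adjusted p 0.484). DEK, a chromatin architecture gene that lies 0.006 kb past KDM1B and was named after its values were seen, rose from 146 ± 14.4 to 201 ± 12.8 FPKM (SD, n = 3), by 0.46 on the log2 scale (adjusted p 0.00930). TPMT, on the other side of KDM1B and also named after its values were seen, changed by −0.09 (adjusted p 0.644). Whether reads were told apart by strand in these tables is not given in the sources used here, so reads of such close genes may have been shared.

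Both demethylases together summed to 102 ± 4.95 FPKM in wild type and to 121 ± 1.53 FPKM in IK-KO (SD, n = 3; exact permutation p = 0.1, two-sided, the smallest that 3 against 3 allows). KDM1B made up 7.69, 7.28 and 6.92% of that sum in wild type and 7.71, 7.84 and 7.62% in IK-KO. The ranges overlapped, and the difference of 0.425 percentage points did not reach the smallest p that the design allows (exact permutation p = 0.2). KDM1A was thus the bulk of this demethylase RNA in every library.

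**Figure D3:**
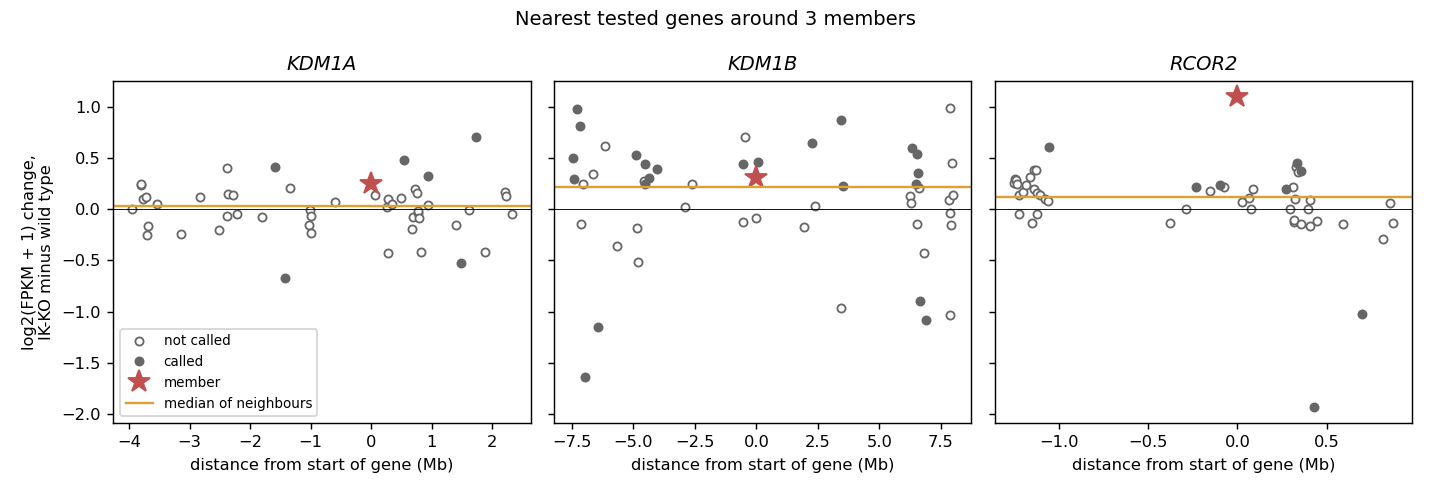
Log2(FPKM + 1) change of the nearest tested genes around KDM1A, KDM1B and RCOR2 against distance from the start of the gene in Mb (each panel has its own horizontal scale). Filled points are called and the star is the named gene. The orange line is the group difference in the neighbours' median taken in each library, not the median of the points. RCOR2 is above all 50 of its neighbours, KDM1A above all but 5 of its own, and 22 of the 50 around KDM1B are called.

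Of the CoREST scaffolds, RCOR2 was called and RCOR1 and RCOR3 were not. RCOR2 (ENSG00000167771.6, chromosome 11, 63911230 to 63917164, minus strand), the scaffold otherwise known mainly from embryonic stem cells and neural progenitors, was at 1.498, 1.82 and 1.19 FPKM in wild type against 3.77, 4.80 and 4.49 FPKM in IK-KO. The lowest IK-KO library was above the highest wild type library. The mean rose from 1.503 ± 0.316 to 4.35 ± 0.526 FPKM (SD, n = 3), 2.90 times. On the log2(FPKM + 1) scale, which understates changes at such levels, it rose by 1.10 (SE 0.15, 95% interval 0.75 to 1.45, limma adjusted p 0.00307), larger in size than the change of 96.4% of tested genes. All 14 alternatives called it, with changes from 0.98 to 1.49 (adjusted p 0.00256 to 0.0180). The level stayed low, with an average over the 6 libraries above that of only 18.9% of tested genes. In IK-KO replicate 3 its confidence bounds, 0.223 to 8.75 FPKM, spanned the wild type values, whereas those of the other IK-KO libraries, 2.91 to 4.63 and 3.90 to 5.69 FPKM, lay above the highest wild type upper bound of 2.46 FPKM. Without that library the change was 1.08 (adjusted p 0.0162).

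The nearest tested gene on either side of RCOR2 was not called. MARK2, whose end lies 0.211 kb from RCOR2, went from 19.1 to 22.4 FPKM (0.22 on the log2 scale, adjusted p 0.163), and NAA40 on the other side from 20.4 to 21.5 FPKM (0.07, adjusted p 0.566). The median of the 50 nearest tested genes, taken in each library as for KDM1A, was 0.12 higher in IK-KO. Of these neighbours 35 had a positive change, and 8 were called, 6 higher and 2 lower. RCOR2 rose more than any of them, and with their median removed it still rose by 0.98 (adjusted p 0.00483). The tested genes whose log2(FPKM + 1) over the 6 libraries was most correlated with RCOR2 were TXNDC5, an endoplasmic reticulum protein disulfide isomerase (Pearson r = 0.999), TMED2, a cargo receptor of early secretion (r = 0.997), and STIP1, a co-chaperone (r = 0.997). With 6 libraries in 2 groups such values mostly express the difference between the groups, and they are given as a description. The log2 changes of the 3 genes were 0.31, 0.33 and 0.20 (limma adjusted p 0.00991, 0.00472 and 0.0165), and TXNDC5, on chromosome 6, went to 0.06 (adjusted p 0.502) with the change of its neighbours removed. STIP1, itself among the 50 neighbours of RCOR2 on chromosome 11, lost its call in 6 of 14 alternatives.

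RCOR1 (ENSG00000089902.10, chromosome 14, 102592649 to 102730561, plus strand), the founding CoREST protein, was at 14.6, 12.9 and 11.2 FPKM in wild type against 13.7, 13.9 and 14.0 FPKM in IK-KO. The IK-KO libraries lay within the wild type range, and the log2 change of 0.10 was not called (SE 0.10, 95% interval −0.13 to 0.34, limma adjusted p 0.526). RCOR3 (ENSG00000117625.13, chromosome 1, 211258377 to 211316385, plus strand), whose product binds LSD1 but has been found to oppose its activity on nucleosomes in erythroid and megakaryocyte cells, was at 12.7, 13.5 and 11.5 FPKM in wild type against 12.4, 11.9 and 14.5 FPKM in IK-KO. Its ranges overlapped as well, with a log2 change of 0.04 (SE 0.10, 95% interval −0.20 to 0.28, adjusted p 0.844) whose sign turned in 3 of 14 alternatives, to −0.05 without IK-KO replicate 3. The intervals of RCOR1 and RCOR3 both end below the point where that of RCOR2 begins, a difference that was not itself tested. TRAF5, which lies 10.2 kb past RCOR3 and was named after its values were seen, fell by 0.76 on the log2 scale (SE 0.15, adjusted p 0.0129).

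As a share of summed RCOR FPKM, RCOR2 held 5.20, 6.44 and 4.99% in wild type and 12.7, 15.7 and 13.6% in IK-KO. The mean share rose from 5.55 ± 0.784 to 14.0 ± 1.56% (SD, n = 3), a difference of 8.43 percentage points with no overlap (exact permutation p = 0.1, two-sided, the smallest possible here). This share was added after the values of RCOR2 were seen, and leaving out each library in turn gave 7.57 to 9.09 points. RCOR3 held 43.95, 47.9 and 48.0% in wild type and 41.5, 38.8 and 43.98% in IK-KO, a difference of −5.20 points (exact permutation p = 0.2). RCOR1 went from 47.8 ± 2.70 to 44.6 ± 1.88% (exact permutation p = 0.2). These shares are parts of the same sum, so a gain in the RCOR2 share lowers the others. The mean FPKM of RCOR1 and RCOR3 did not fall, at 12.9 and 12.6 FPKM in wild type and 13.9 and 12.9 FPKM in IK-KO. The RCOR genes summed to 28.8, 28.3 and 23.8 FPKM in wild type and to 29.8, 30.6 and 33.1 FPKM in IK-KO, so that IK-KO was higher without overlap (exact permutation p = 0.1). Taken singly, only RCOR2 had ranges without overlap, while those of RCOR1 and RCOR3 overlapped. Per unit of summed RCOR RNA, KDM1A was at 3.51 ± 0.210 in wild type and 3.60 ± 0.225 in IK-KO (SD, n = 3; exact permutation p = 0.7), a ratio of FPKM with overlapping ranges.

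**Figure D4:**
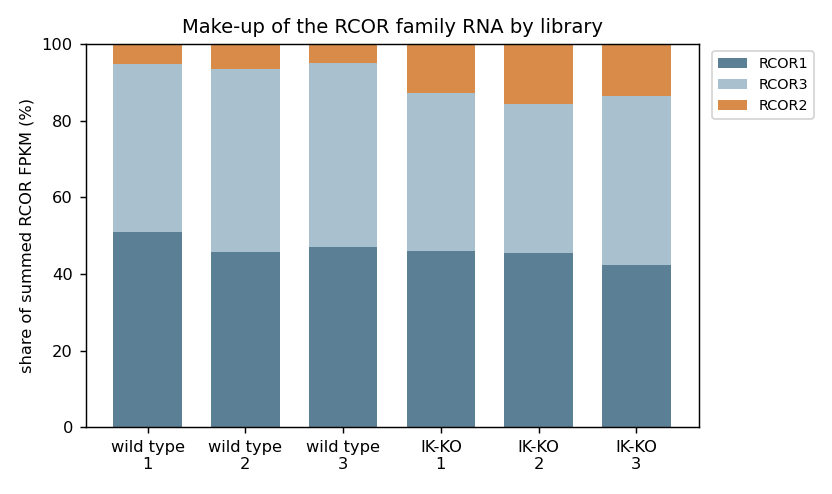
Share of summed RCOR1, RCOR2 and RCOR3 FPKM in each of the 6 libraries, as stacked bars from 0 to 100%. The RCOR2 part is between 4.99 and 6.44% in the wild type libraries and between 12.7 and 15.7% in the IK-KO libraries.

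ZMYM2 (ENSG00000121741.16, chromosome 13, 19958670 to 20091829, plus strand), a zinc finger subunit of LSD1 complexes, was at 31.2, 24.9 and 22.3 FPKM in wild type against 26.7, 25.5 and 28.5 FPKM in IK-KO. Wild type replicate 1 was the highest of the 6, with wide bounds of 25.3 to 37.0 FPKM, and the IK-KO values lay within the wild type range. The log2 change was 0.05 (SE 0.12, 95% interval −0.23 to 0.33, limma adjusted p 0.805). It was 0.18 without wild type replicate 1 (adjusted p 0.220) and −0.05 without wild type replicate 3. Of its 5 relatives in the MYM family, all tested, only ZMYM3 was called, 20% beside 19.9% of all tested genes. ZMYM3, also a known CoREST-associated protein, rose from 23.3, 22.9 and 22.0 FPKM to 29.6, 29.2 and 29.1 FPKM, by 0.35 on the log2 scale (SE 0.06, adjusted p 0.00560), and all 14 alternatives called it.

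GFI1 (ENSG00000162676.12, chromosome 1, 92473043 to 92486925, minus strand) was at 11.4, 13.1 and 11.8 FPKM in wild type against 10.7, 11.6 and 9.56 FPKM in IK-KO. The mean was 12.1 ± 0.887 FPKM in wild type and 10.6 ± 1.006 FPKM in IK-KO (SD, n = 3), and IK-KO replicate 2 lay inside the wild type range. The log2 change of −0.18 was not called (SE 0.10, 95% interval −0.40 to 0.05, limma adjusted p 0.248), nor in any of the 14 alternatives (−0.24 to −0.11). It was the only tested gene of the 7 with a negative estimate. GFI1B (ENSG00000165702.14, chromosome 9, 132944000 to 132991687, plus strand), its erythroid and megakaryocyte paralog, had 0.0329, 0.0327 and 0 FPKM in wild type against 0.0366, 0 and 0 FPKM in IK-KO. No upper confidence bound exceeded 0.372 FPKM, and the gene was too low to be tested, so no fold is given. It overlaps TSC1 on the opposite strand, which averaged 6.75 FPKM. GFI1B made up at most 0.342% of the summed FPKM of the pair in any library (exact permutation p = 1 for the difference between groups), so GFI1 was nearly all of the GFI1 family RNA measured.

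Among 16 known CoREST complex partners, 15 were found by symbol, 13 were tested and 4 were called, 3 higher and 1 lower. That is 30.8% of those tested, beside 19.9% of all tested genes, with a median change of 0.20 beside 0.02. HDAC2, a deacetylase of the complex, was at 144, 155 and 139 FPKM in wild type and 257, 253 and 247 FPKM in IK-KO, a rise of 0.79 (SE 0.05, limma adjusted p 0.000162) and of 0.56 with its chromosome 6 neighbours removed. Its paralog HDAC1 went from 147 ± 2.62 to 159 ± 1.603 FPKM (SD, n = 3) without overlap, and its change of 0.12 was not called (adjusted p 0.0900). ZMYM3, above, was the second to rise. ZNF217, a zinc finger protein of CoREST complexes, rose by 0.25 (adjusted p 0.0339), and GSE1, a coiled-coil subunit, fell from 61.5, 62.6 and 65.0 FPKM to 56.9, 52.5 and 53.5 FPKM, by 0.21 on the log2 scale (adjusted p 0.0335). ZNF217 and GSE1 each lost the call in 8 of 14 alternatives, while HDAC2 was called in all.

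IK-KO replicate 1 stood apart from the other IK-KO libraries in 3 partners that were not called, named after their values were seen. RREB1, a zinc finger factor, was at 44.1 FPKM there, at 10.7 and 9.69 FPKM in the other IK-KO libraries and at 7.08 to 8.12 FPKM in wild type. Its log2 change of 1.08 (adjusted p 0.190) was 0.41 without that library. PHF21B was at 2.66 FPKM there, at 0.824 and 1.33 FPKM in the others of its group and at 0.510 to 0.716 FPKM in wild type. It met the filter of 1 FPKM only through the IK-KO libraries. Its place among the tested partners, and in their median, thus depends on them. ZNF516, which was too low to be tested, was at 0.859 FPKM in IK-KO replicate 1 against 0.0945 and 0.0890 FPKM in the others of its group.

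Of 17 DNA-binding factors known to recruit LSD1, besides GFI1 and GFI1B, 12 were too low to be tested, and INSM1, SNAI2, SCRT2 and OVOL2 were at 0 in every library. Of the other 5, 1 was called, 20% beside 19.9% of all tested genes. TAL1, a basic helix-loop-helix factor of T-ALL and erythroid cells, was at 24.95, 22.8 and 21.5 FPKM in wild type against 13.2, 11.6 and 12.1 FPKM in IK-KO, and it fell by 0.86 on the log2 scale (SE 0.08, limma adjusted p 0.000736). All 14 alternatives called it. REST, the factor through which CoREST was first described, was named here after its values were seen and was at 14.4 ± 1.91 and 14.5 ± 1.86 FPKM (SD, n = 3), a change of 0.00 on the log2 scale (95% interval −0.30 to 0.30). Other counts for this list ran from 1 to 3 over the alternatives.

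The list of 30 textbook targets of GFI1 and GFI1B was written with earlier results of these data known, ID1 and CDKN1A among them. Neither the share of its genes that was called nor their direction is therefore independent evidence. Of its genes 15 were tested and 11 were called, 10 higher and 1 lower, or 73.3% beside 19.9% of all tested genes, with a median of 0.43. The other 15 were too low to be tested, ELANE and HOXA9 being at 0 in all 6 libraries. ID1, an inhibitor of basic helix-loop-helix factors, went from 35.6, 40.3 and 28.3 FPKM to 119, 118 and 110 FPKM, a rise of 1.72 (SE 0.12, limma adjusted p 0.000190). CDKN1A, the cyclin-dependent kinase inhibitor p21, was at 2.46, 2.44 and 1.89 FPKM in wild type and 6.31, 5.03 and 4.16 FPKM in IK-KO, a rise of 0.91 (SE 0.16, adjusted p 0.00869) and of 0.68 with its chromosome 6 neighbours removed. EGR1, an immediate early factor, rose by 0.72 (adjusted p 0.0405), E2F5, an E2F family member, by 0.67 (adjusted p 0.0125), and SOCS1, a cytokine signalling inhibitor, by 0.52 (adjusted p 0.0478). EGR1 averaged 0.659 FPKM in wild type and 1.77 FPKM in IK-KO. It met the filter of 1 FPKM only through the IK-KO libraries, so its place among the tested and called genes depends on them. The 5 other genes that rose, ID3, E2F6, BAX, GATA3 and BCL2L1, did so by 0.27 to 0.48. These 5 and ETS1 were named after their values were seen. ETS1, a lymphoid transcription factor and the one called gene that fell, was at 123, 128 and 110 FPKM in wild type and 84.7, 86.2 and 87.3 FPKM in IK-KO, a change of −0.48 (SE 0.06, adjusted p 0.00302).

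The count for these targets depended on the analysis. With no filter on low values 5 were called, and 6 to 10 when a library was left out. SOCS1 lost its call in 11 of 14 alternatives, EGR1 in 8, and E2F5 in 1. ID1, CDKN1A and ETS1 were called in all 14. GFI1 itself was not called and GFI1B was not tested.

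**Figure D5:**
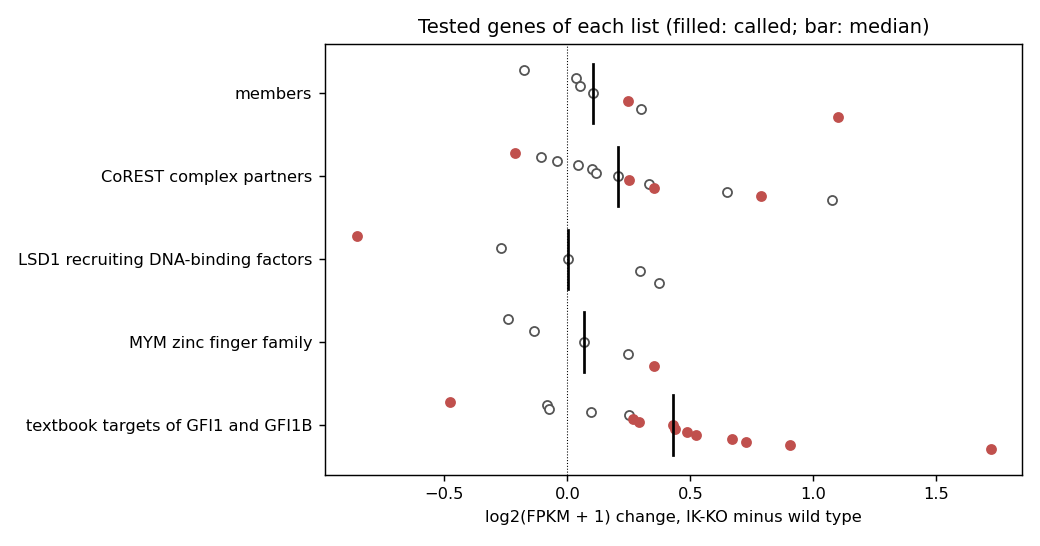
Log2(FPKM + 1) change from wild type to IK-KO of the tested genes in each list, 1 point a gene, filled where called, with a black bar at the median of the list; points are shifted vertically only to separate them. The targets of GFI1 and GFI1B have a median of 0.43 with 11 of 15 filled, and the 7 tested LSD1-CoREST and GFI1 genes a median of 0.10 with 2 filled. All lists were chosen with earlier results of these data known.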

How the data were processed

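PolyA RNA of 6 MOLT-4 libraries, 3 wild type and 3 IK-KO by their labels, was analysed from 1 gene table each. The authors deposited FPKM with confidence bounds per gene, as Cufflinks writes them. The submitters' processing notes name STAR 2.6.1c, Cufflinks 2.2.1, HOMER 4.10 and hg38, without stating their roles. The study's RNA-seq methods describe a mouse genome and merged technical replicates, so the counting of these libraries, its use of strand included, is not given in the sources used here. The tables hold no counts, and relative depth was judged from the confidence bounds.

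Rows sharing an identifier (110 of 60640 identifiers) were summed, and genes not estimated in a library (29) were left out. All 49727 identifiers with the same version in GENCODE 44 lay at its GRCh38 positions. Genes with a mean of at least 1 FPKM (12652) entered a limma model with group alone on log2(FPKM + 1), using limma 3.58.1 under R 4.3.3. Moderation used eBayes with trend, tests were two-sided, and p-values were adjusted by Benjamini-Hochberg across all of them. The script was tested on simulated data. Shares were compared by exact permutation tests (scipy 1.17.1, Python 3.11.15). Neighbours are the 25 nearest tested genes on each side, and ZMYM2, near a chromosome end, had 29. Their median was taken in each library, on deviations from each gene's wild type mean. The value given is its group mean in IK-KO minus that in wild type.

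The members and lists were chosen with earlier results of these data known. Named were all 8 genes, IKZF1, HDAC1 and HDAC2, up to 5 called genes per list by size of change, the nearest tested gene on each side of a called member, and the 3 genes most correlated with RCOR2. Others are said to have been named after their values were seen. Alternatives were a pseudocount of 0.1, no filter, TPM or median-of-ratios scaling, a replicate block, no trend, neighbours' median removed, failed estimates kept, and leaving out each library.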

Additional observations from a re-analysis of the deposited data

How the results depend on the processing

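RCOR2 kept its call and direction under all 14 alternatives, and RCOR1 and GFI1 stayed uncalled with the same sign. Leaving out each library in turn gave 1 to 2 called members (1 without IK-KO replicate 1) and a KDM1A change of 0.21 to 0.27, which was 0.23 and no longer called without IK-KO replicate 1. KDM1B was called at 0.29 under median-of-ratios scaling. The uncalled RCOR3 change turned to −0.0007 with neighbours removed, to −0.0227 without wild type replicate 3 and to −0.0452 without IK-KO replicate 3 (range −0.0452 to 0.0915), and that of ZMYM2 to −0.0492 without wild type replicate 3 (range −0.0492 to 0.18). ZBTB40 turned to −0.0149 without wild type replicate 3 (range −0.0149 to 0.1249), NAA40 to −0.0423 with neighbours removed and TPMT to 0.0062 without IK-KO replicate 1 (−0.1424 to 0.0062 with a library left out, and −0.315 with neighbours removed). Called CoREST partners, 4 in the report, were 2 without the mean-variance trend and 2 to 3 with a library left out. Called recruiting factors, 1 in the report, were 2 under median-of-ratios scaling, 3 with neighbours removed and 1 to 2 with a library left out. Called GFI1 and GFI1B targets, 11 in the report, were 5 without the filter, where more genes are tested, and 6 to 10 with a library left out. The GFI1B difference, −0.07 points as a share, was 0.163 as a log2 ratio of FPKM + 1, a scale on which GFI1 sets the value; leaving out a library gave −0.179 to −0.00829 points. Otherwise the cause was not tested.

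Replicate numbers are shared between groups, and libraries with the same number deviated together only weakly (r of 0.0669, 0.0248 and 0.00546 across genes). Libraries with different numbers were not compared, so these values cannot tell whether the numbers pair the libraries. With the replicate block 1805 genes were called in place of 2515. The called members were again KDM1A (adjusted p 0.0417) and RCOR2 (adjusted p 0.0144), with 2 CoREST partners and 6 targets called.

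FPKM carry no counts, so no counting interval was computed, and the bounds printed for single libraries are those deposited with the values. Values near 0, as for GFI1B, and the wide bounds of RCOR2 in IK-KO replicate 3 limit what can be said of low genes. Both groups come from 1 cell line, so spread between independent edited lines is unknown.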
